A study of Mus musculus with 6 samples.

Results

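Hepcidin, its regulators in the hepatocyte and the proteins that move iron across cell membranes were examined in the livers of mice given an active form of CREB-H. The 10 genes were chosen by symbol: Hamp, Hamp2, Bmp6, Tfr2, Hfe, Tmprss6, Id1, Smad7, Slc40a1 and Tfrc. Each was read by 1 probe set with that platform gene symbol, so the 10 genes stand among 22180 measured genes and no choice between probe sets was needed. The livers came from 6 mice that all carried the CREB-H knockout (allele Creb3l3tm1.1Sad/J), were listed as 8 weeks old and ate a normal diet. In 3 of them a liver-targeting adeno-associated virus injected into the abdomen supplied CREB-H-ΔTC, the active form of CREB-H. The other 3 received the same kind of virus with green fluorescent protein (GFP), and livers were taken 2 weeks later. Neither group had its own intact Creb3l3, the vector carried a promoter not given in the sources used here, and no group without virus or with intact Creb3l3 was analysed here. Each liver was hybridised to 1 array in 1 colour. All levels below are log2 signals, so a difference of 1 is a change of signal by a factor of 2, and probe sets of different genes are not set against each other.

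Hepcidin is the peptide hormone with which the liver limits iron in the blood. It binds ferroportin (Slc40a1), the iron exporter of macrophages, gut cells and hepatocytes, and causes its removal from the membrane. Hepatocytes set hepcidin transcription mainly through bone morphogenetic protein (BMP) signalling: BMP6 from sinusoidal endothelial cells acts with the co-receptor hemojuvelin and SMAD proteins, HFE and transferrin receptor 2 report transferrin-bound iron, and the protease matriptase-2 (Tmprss6) restrains the pathway. Interleukin-6 acts beside it through STAT3. Mice carry a pair of hepcidin genes, Hamp and Hamp2, of which Hamp encodes the peptide known to lower blood iron. CREB-H has been reported to bind the hepcidin promoter in mice during stress of the endoplasmic reticulum, which makes hepcidin a gene of interest in this design.

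The promoters of both hepcidin genes are shown because the genes are close copies whose control sequences differ at a BMP element. The sequences are the 250 bases before the annotated start from RefSeq, build GRCm38.p6, minus strand, with Hamp at chr7:30944030-30944279 and Hamp2 at chr7:30924182-30924431. Capitals mark the letters GGCGCC, the core of the BMP-responsive element, and TTCNNNGAA, the pattern read by STAT factors.
Hamp: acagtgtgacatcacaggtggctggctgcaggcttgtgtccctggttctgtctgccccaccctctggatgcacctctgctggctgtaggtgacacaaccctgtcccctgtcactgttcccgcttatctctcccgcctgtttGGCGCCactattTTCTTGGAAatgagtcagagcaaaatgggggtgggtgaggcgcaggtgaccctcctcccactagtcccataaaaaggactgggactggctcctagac
Hamp2: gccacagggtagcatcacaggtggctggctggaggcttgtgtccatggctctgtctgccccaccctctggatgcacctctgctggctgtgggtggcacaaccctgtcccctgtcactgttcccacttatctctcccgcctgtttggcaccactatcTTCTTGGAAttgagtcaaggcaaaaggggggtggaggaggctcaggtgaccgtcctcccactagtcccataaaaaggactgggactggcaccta
Over 247 aligned bases without internal gaps the promoters were identical at 227 (91.9%) and differed by 20 substitutions. One of these, G145A, counted from 1 at the 5′ end of the Hamp sequence as Hamp base, position and Hamp2 base, falls inside GGCGCC, so that this pattern is in the Hamp promoter and not in that of Hamp2. TTCNNNGAA is in both.

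The RefSeq promoter table held 9 promoters of 6 of the 10 genes: Hamp, Hamp2, Bmp6, Tfr2, Hfe and Tfrc. GGCGCC was found in Hamp and in 1 of the 2 promoters of Tfrc, against 9.59% of all 32851 promoters cut to the same length. TTCNNNGAA was found only in the hepcidin genes among these 6, against 7.02% of all promoters. TGACGTCA, the full cyclic AMP response element read by CREB-family factors, was in none of the 9 (1.55% of all promoters), and its shorter core TGACGT, which overlaps it, was in 1 promoter of Tfrc (6.47%). Both strands were searched, and a match is a description of letters in this window.

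The supplied gene gives a limited check of the labels, since which part of its RNA the probe set reads was not tested. Creb3l3 had signals of 6.73, 7.25 and 7.58 in CREB-H-ΔTC livers, against 6.55, 5.93 and 6.40 in GFP livers. The groups did not overlap, which was so for 12.3% of all probe sets. The log2 difference was 0.89 (SE 0.25), in the direction of the labels, and did not pass over all probe sets (limma adjusted p = 0.647). Replicate 3 of each group carried signal of genes on the Y chromosome (mean of Kdm5d, Eif2s3y and Uty: 7.67 with CREB-H-ΔTC and 7.83 with GFP, against 3.15 to 3.39 on the other 4 arrays), and Xist was low on the same arrays. Xist had 3.75 with CREB-H-ΔTC and 4.43 with GFP on replicate 3, against 10.83 to 11.35 on the other 4 arrays. By these genes replicate 3 of each group reads as male and the other 4 arrays as female. Sex is not among the labels. Several iron genes followed the replicate 3 arrays. So the difference of each of the 10 genes is also given within the 4 arrays lacking Y-linked signal and the 2 carrying it. For Creb3l3 these differences were 0.75 and 1.17 in that order. Leaving out 1 array gives the groups unlike shares of arrays with Y-linked signal. Leaving out a replicate 3 keeps such an array in 1 group only, so that fit mixes group with Y-linked signal. The mean of 6 hepatocyte markers was 11.6 to 11.8 on every array, which fits the labelled tissue. Of these markers Ass1 had signals of 6.04 to 6.96, so the mean does not describe each of them.

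No gene of the set passed the comparison of CREB-H-ΔTC with GFP. Adjusted p-values from limma, with Benjamini-Hochberg adjustment over 41345 probe sets, ran from 0.827 to 0.999 for the 10 genes, against 2 probe sets (0.00484%) that passed in the whole table. At an unadjusted p below 0.05 the count was also 0 of 10, against 6.89% of all probe sets, and in 0 of 10 did the groups separate, against 12.3%. Of the 10 genes 5 were higher and 5 lower with CREB-H-ΔTC, with a median log2 difference of -0.03. Over all probe sets the median was -0.015 and 46.3% were higher. Apart from Hamp2 no difference exceeded 0.22 in size. The precision sets what could have been seen: the 95% interval reached from -2.68 to 1.03 for Hamp2 and from -0.15 to 0.30 for Tmprss6.

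**Figure D1:**
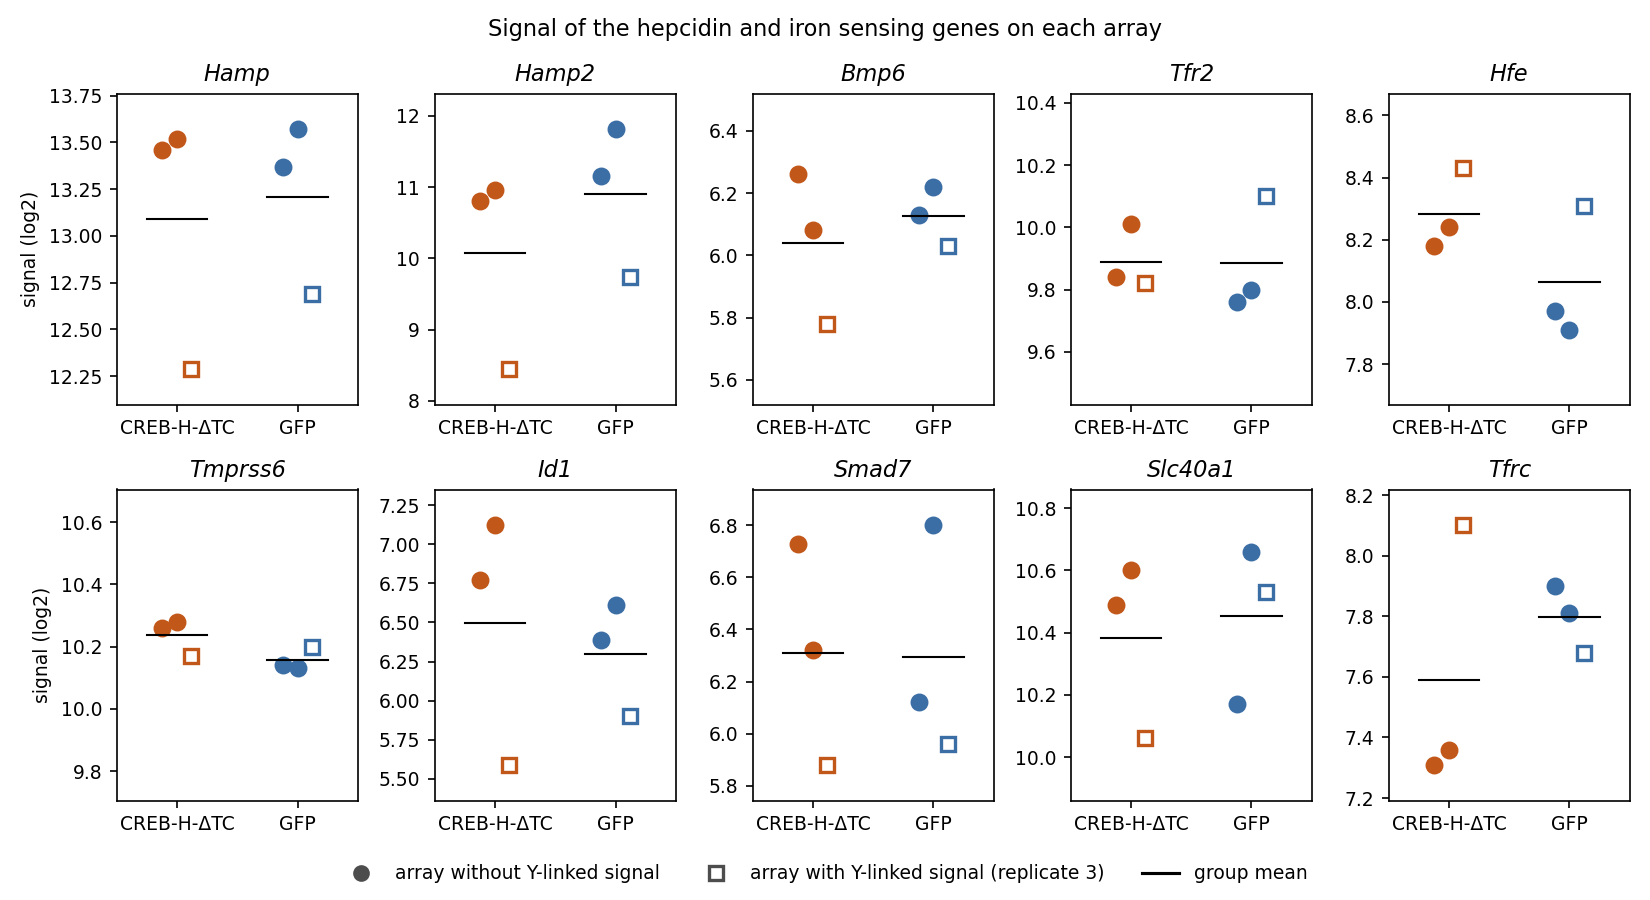
Log2 signal of the 10 genes on each of the 6 arrays, CREB-H-ΔTC left and GFP right, with the group mean as a line; each panel has its own axis, which does not start at 0. Open squares mark replicate 3 of each group, the arrays with Y-linked signal, which lie lowest in both groups for Hamp, Hamp2, Bmp6, Id1 and Smad7 and highest in both for Hfe.

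Hamp, the hepcidin gene that acts on iron, was bright in both groups and did not separate them. Its signals were 13.46, 13.52 and 12.29 in CREB-H-ΔTC livers, against 13.37, 13.57 and 12.69 in GFP livers (probe set 17489363, Entrez 84506). Replicate 3 was the lowest array of each group, and the other 4 arrays lay within 0.20 of one another. The group means were 13.09 ± 0.69 with CREB-H-ΔTC and 13.21 ± 0.46 with GFP (SD, n = 3 each), a log2 difference of -0.12 (SE 0.38, 95% interval -1.02 to 0.78). The difference was 0.02 over the 4 arrays lacking Y-linked signal, and -0.40 between the 2 carrying it. With a term for Y-linked signal in the limma model it stayed at -0.12, with an SE of 0.13 (unadjusted p = 0.408, adjusted p = 0.854). The sign depended on single arrays: the difference was 0.28 without CREB-H-ΔTC replicate 3, 0.06 without GFP replicate 2 and -0.38 without GFP replicate 3. These signals lie near the top of the deposited values, whose highest is 13.87, and whether the arrays still resolve differences there was not tested.

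Hamp2, the second hepcidin gene, had the largest difference of the set and also the widest spread. Its signals were 10.81, 10.96 and 8.45 in CREB-H-ΔTC livers, against 11.15, 11.81 and 9.74 in GFP livers (probe set 17489357, Entrez 66438). The groups overlapped because replicate 3 was far below the others in each, yet both CREB-H-ΔTC arrays without Y-linked signal lay below both GFP arrays without it, and the CREB-H-ΔTC array with Y-linked signal lay below the GFP array with it. The means were 10.07 ± 1.40 with CREB-H-ΔTC and 10.90 ± 1.06 with GFP (SD, n = 3 each), a log2 difference of -0.82 (SE 0.78), a fold of 0.565 with a 95% interval of 0.156 to 2.05. The exact two-sided permutation p over the 6 arrays was 0.5, where 0.1 is the smallest possible. The difference was -0.60 over the 4 arrays lacking Y-linked signal and -1.28 between the 2 carrying it. With a term for Y-linked signal in the limma model the SE was 0.23 and the unadjusted p was 0.0113 (adjusted p = 0.474). Hamp2 was the 1 gene of 10 with an unadjusted p below 0.05 in that model, against 8.57% of all probe sets, and 0 of 10 passed after adjustment, against 0.00242%. Single arrays moved the difference from -0.02 without CREB-H-ΔTC replicate 3 to -1.41 without GFP replicate 3. Both of these fits keep Y-linked signal in 1 group only. Whether the probes tell Hamp from Hamp2 was not tested, since probe sequences were not used here.

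Genes whose groups separated in the same direction both among the 4 arrays and between the 2 were 2 of 10, Hamp2 lower and Hfe higher, against 21.7% of all probe sets. This share is near the background and is no result about the set.

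**Figure D2:**
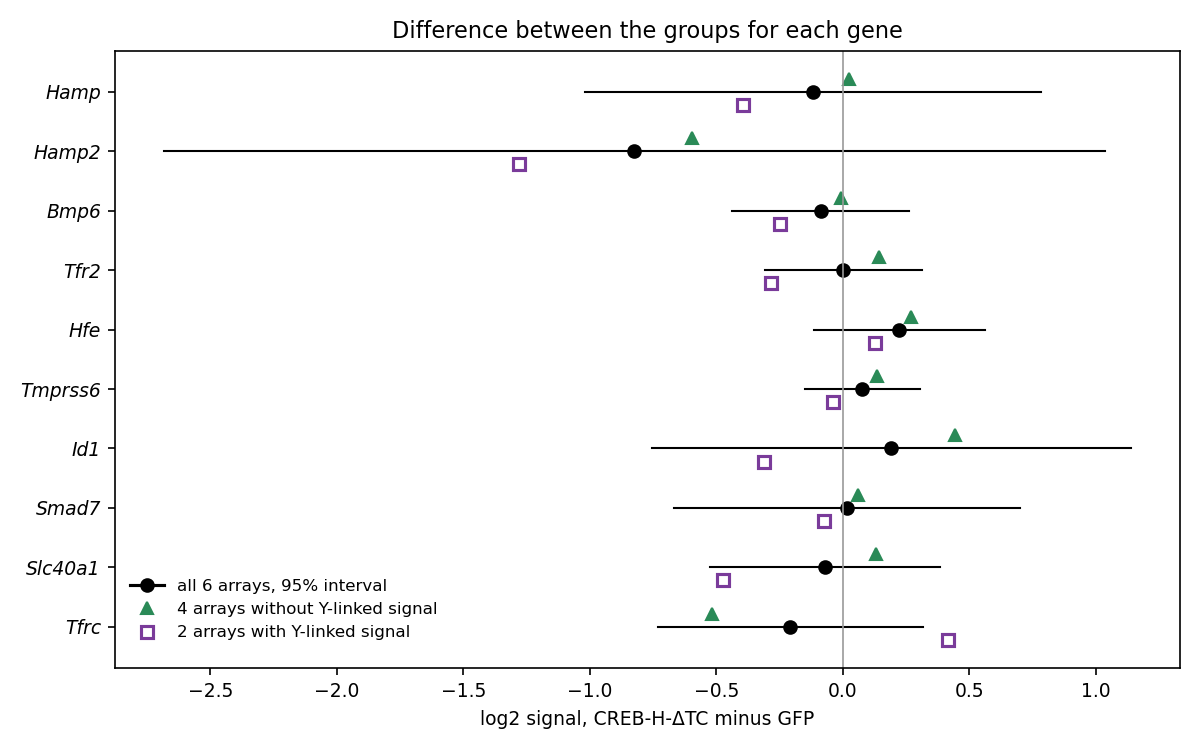
Log2 difference of CREB-H-ΔTC minus GFP for each gene, with the limma 95% interval over all 6 arrays (black), the difference over the 4 arrays lacking Y-linked signal (triangles) and between the 2 carrying it (squares). Every interval includes 0, and only for Hamp2, Hfe and Bmp6 do the triangle and the square lie on the same side of 0.

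The ligand BMP6, made mainly by sinusoidal endothelial cells, did not separate the groups. Bmp6 had signals of 6.26, 6.08 and 5.78 in CREB-H-ΔTC livers, against 6.13, 6.22 and 6.03 in GFP livers, with the ranges overlapping and replicate 3 lowest in both. The log2 difference was -0.09 (SE 0.15, 95% interval -0.44 to 0.26), with -0.01 among the 4 arrays and -0.25 between the 2; it was 0.04 without CREB-H-ΔTC replicate 3 and -0.20 without CREB-H-ΔTC replicate 1. Markers of sinusoidal endothelial cells averaged 9.01 to 9.19 with CREB-H-ΔTC and 8.88 to 9.19 with GFP over 8 genes, of which 7 were higher with CREB-H-ΔTC and none passed. Over all probe sets 46.3% were higher. In whole liver, fewer cells of a type and less RNA per cell cannot be told apart.

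The sensors of transferrin-bound iron stood close in both groups. Tfr2, the transferrin receptor of hepatocytes that takes part in hepcidin control, had signals of 9.84, 10.01 and 9.82 in CREB-H-ΔTC livers, against 9.76, 9.80 and 10.10 in GFP livers. Its log2 difference was 0.00 (SE 0.13, 95% interval -0.31 to 0.31), with 0.14 among the 4 arrays and -0.28 between the 2. Hfe, which encodes the protein lost in the common form of human hereditary haemochromatosis, had signals of 8.18, 8.24 and 8.43 in CREB-H-ΔTC livers, against 7.97, 7.91 and 8.31 in GFP livers. All but the third GFP array lay below the CREB-H-ΔTC arrays, and replicate 3 was the highest of each group, the reverse of Hamp. The log2 difference was 0.22 (SE 0.14, adjusted p = 0.827), with 0.27 among the 4 arrays and 0.13 between the 2; it was 0.15 without CREB-H-ΔTC replicate 3 or GFP replicate 2, and 0.34 without GFP replicate 3.

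Tmprss6, whose protease cuts hemojuvelin and so lowers hepcidin, was the steadiest gene of the set. Its signals were 10.26, 10.28 and 10.17 in CREB-H-ΔTC livers, against 10.14, 10.13 and 10.20 in GFP livers, a range of 0.15 over all arrays. The log2 difference was 0.08 (SE 0.09), and its 95% interval of -0.15 to 0.30 corresponds to a fold of 0.902 to 1.23. Among the 4 arrays the difference was 0.13, and between the 2 it was -0.04.

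The direct BMP-SMAD target genes, which report the activity of the pathway in hepatocytes and endothelial cells, spread widely within the groups. Id1, an inhibitor of basic helix-loop-helix factors, had signals of 6.77, 7.12 and 5.59 in CREB-H-ΔTC livers, against 6.39, 6.61 and 5.90 in GFP livers. Both CREB-H-ΔTC arrays without Y-linked signal were above every GFP array, and the third was below every one, so that the difference was 0.44 among the 4 arrays and -0.31 between the 2 (0.19 over all, SE 0.40). Leaving out CREB-H-ΔTC replicate 3 gave 0.64 with an unadjusted limma p of 0.0375 (adjusted p = 0.679), and leaving out CREB-H-ΔTC replicate 2 gave -0.12. The fit without CREB-H-ΔTC replicate 3 keeps Y-linked signal in the GFP group alone, so it mixes group with Y-linked signal. In that fit 2 of the 10 genes and 2970 of 41345 probe sets had an unadjusted limma p below 0.05. Smad7, the inhibitory SMAD that closes the feedback loop on the receptor, had signals of 6.73, 6.32 and 5.88 in CREB-H-ΔTC livers, against 6.12, 6.80 and 5.96 in GFP livers. The arrays of the groups interleaved, and the log2 difference was 0.02 (SE 0.29), with 0.06 among the 4 arrays, -0.08 between the 2, and values from -0.19 without CREB-H-ΔTC replicate 1 to 0.27 without GFP replicate 2.

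Neither the iron exporter nor the uptake receptor separated the groups. Slc40a1, ferroportin, had signals of 10.49, 10.60 and 10.06 in CREB-H-ΔTC livers, against 10.17, 10.66 and 10.53 in GFP livers, and the groups overlapped. Its log2 difference was -0.07 (SE 0.19), 0.13 among the 4 arrays and -0.47 between the 2; it was 0.09 without CREB-H-ΔTC replicate 3, 0.03 without GFP replicate 2 and -0.21 without GFP replicate 1. Ferroportin RNA is also abundant in Kupffer cells, the macrophages of the liver. Their 7 markers averaged 8.15 to 9.05 with CREB-H-ΔTC and 7.64 to 8.87 with GFP. All 7 were higher with CREB-H-ΔTC (median 0.39), beside 46.3% of all probe sets, and none passed. The part of Kupffer cells in these values was not tested. Tfrc, transferrin receptor 1, whose RNA is stabilised when cells are short of iron, had signals of 7.31, 7.36 and 8.10 in CREB-H-ΔTC livers, against 7.90, 7.81 and 7.68 in GFP livers. The first 2 CREB-H-ΔTC arrays were the lowest of the 6 and the third was the highest. The log2 difference of Tfrc was -0.21 (SE 0.22) over all arrays, -0.52 over the 4 lacking Y-linked signal (limma adjusted p = 0.54) and 0.42 between the 2 carrying it. The unadjusted limma p over those 4 arrays was 0.00842, in a fit where 3338 of 41345 probe sets had an unadjusted p below 0.05. The difference of Tfrc was -0.46 without CREB-H-ΔTC replicate 3, and -0.07 and -0.09 without CREB-H-ΔTC replicates 1 and 2. Without CREB-H-ΔTC replicate 3 the limma fit gave Tfrc an unadjusted p of 0.00932 (adjusted p = 0.614). That fit keeps Y-linked signal in the GFP group alone, and 2970 probe sets had an unadjusted p below 0.05 in it. Tfrc is also abundant in erythroid precursors. Of 9 erythroid markers 2 could be named, Slc4a1 and Epb42, with means of 4.78 to 5.09 with CREB-H-ΔTC and 4.64 to 4.83 with GFP, and both were higher with CREB-H-ΔTC without passing.

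Among the 4 arrays without Y-linked signal, the groups separated in 6 of the 10 genes, against 39.7% of all probe sets. Tfr2, Hfe, Tmprss6 and Id1 were the 4 higher ones and Hamp2 and Tfrc the 2 lower ones.

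A pattern that 5 of the 10 genes shared lay between arrays and not between groups. Replicate 3 was the lowest array of its group, in both groups, in 5 of 10 genes: both hepcidin genes, the ligand gene Bmp6 and the target genes Id1 and Smad7. It was the highest in both for 1, Hfe. Over all probe sets these shares were 13.9% and 16.1%. Replicate 3 of CREB-H-ΔTC lay below the mean of its other arrays by 1.20 for Hamp (log2 difference -1.20) and replicate 3 of GFP differed by -0.78. For Hamp2 these differences were -2.43 with CREB-H-ΔTC and -1.74 with GFP, and for Id1 -1.36 and -0.60 in the same order. Smad7 followed with -0.64 in CREB-H-ΔTC livers and -0.50 in GFP livers. Kupffer markers moved the same way, with all 7 lowest on replicate 3 in both groups and their mean lower by 0.78 with CREB-H-ΔTC (log2 difference -0.78) and by 0.92 with GFP (-0.92). Their part in the iron genes was not tested. The mean of the hepatocyte markers did not follow: on replicate 3 it differed from that of the other arrays by 0.05 with CREB-H-ΔTC and -0.11 with GFP. Several of these markers lie near the top of the deposited values, whose highest is 13.87. Alb had signals of 13.76 to 13.87, Apoa2 13.50 to 13.61, Ttr 13.39 to 13.50 and Cps1 13.01 to 13.28. Whether the arrays still resolve differences there was not tested, so a flat mean cannot show whether hepatocyte RNA followed. Replicate 3 was lowest in both groups for 1 of the 6 markers. Single markers varied more than the mean, as Ass1 differed by 0.07 with CREB-H-ΔTC and -0.82 with GFP. Means of 6 stellate cell markers ran from 6.70 to 7.20 with CREB-H-ΔTC and from 6.79 to 6.96 with GFP, and those of 4 lymphocyte markers from 5.0 to 5.4 with CREB-H-ΔTC and from 5.0 to 5.2 with GFP, with no gene of either list passing. Replicate 3 had the lowest mean of its group for both lists, by -0.43 with CREB-H-ΔTC and -0.15 with GFP for the stellate markers and by -0.34 with CREB-H-ΔTC and -0.17 with GFP for the lymphocyte markers. The mean of the 8 sinusoidal endothelial markers was also lowest there, by -0.17 in both groups. The part of these cell types in the iron genes was not tested either. This pattern was not tested, and the sex of the mouse and any other property of replicate 3 cannot be told apart.

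**Figure D3:**
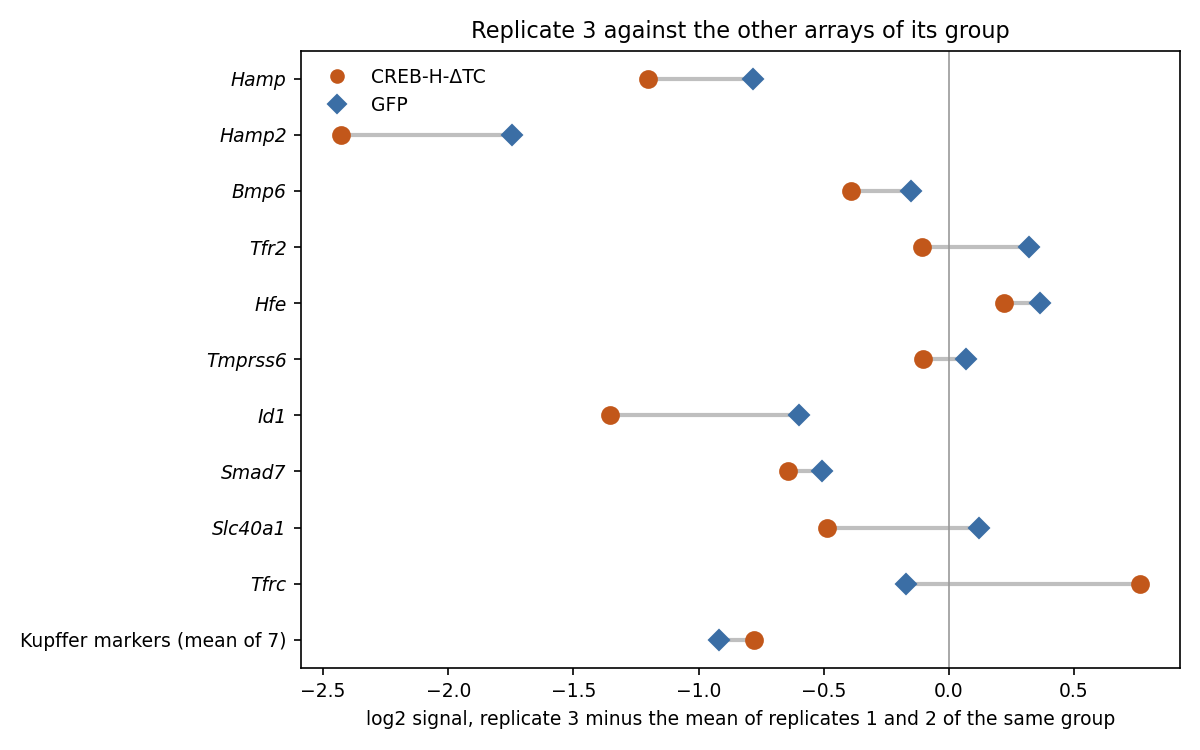
Log2 signal of replicate 3 minus the mean of replicates 1 and 2 of the same group, for the 10 genes and for the mean of 7 Kupffer cell markers, in CREB-H-ΔTC (circles) and GFP (diamonds). Both hepcidin genes, Bmp6, Id1, Smad7 and the Kupffer markers lie left of 0 in both groups, with Hamp2 farthest at -2.43 and -1.74.

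The genes most like Hamp over the 6 arrays showed the same split, which their selection over these arrays favours. Among 1883 genes with a mean signal of at least 5 and an SD of at least 0.3, the 5 closest by Pearson's correlation, used here as a measure of likeness only, were Cyp2b9, Sod3, Cyp2a4, Cables1 and Cyp2c70. Cyp2b9 had 12.48, 12.59 and 3.99 in CREB-H-ΔTC livers, against 12.63, 12.54 and 7.00 in GFP livers, and Cyp2a4 had 12.26, 12.44 and 8.60 against 12.21, 12.04 and 9.76 in the same order. Both are cytochrome P450 genes known to be higher in the liver of female mice. Closest to Hamp2 were Cadm3, Kdm5c, Txnip, Ptpn1 and Ugt2b37. Kdm5c, an X-linked gene that escapes silencing, had 8.15, 8.22 and 7.63 in CREB-H-ΔTC livers, against 8.40, 8.47 and 8.02 in GFP livers, and so shared with Hamp2 both the low replicate 3 and the lower CREB-H-ΔTC arrays. None of these 10 genes passed the comparison of the groups (adjusted p = 0.817 to 0.983). All 10 were lowest on replicate 3 in both groups, and the likeness is a description of 6 arrays that fall into separate clusters. Because the genes were picked by likeness to Hamp or Hamp2 on these arrays, the shared patterns follow largely from the selection. They are no separate result.

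The wider iron pathway was read from 5 lists of genes around the set, and none of their 86 measured members passed over all probe sets. The groups did not overlap in 3 of 27 BMP and SMAD genes, 3 of 13 interleukin-6 arm genes and 3 of 20 carriers. They did not overlap in 1 of 10 storage genes and 4 of 16 heme genes, against 12.3% of all probe sets. Genes named below, apart from Id3, were picked by low p on the same 6 arrays. Their separation and their values with 1 array left out therefore add no support. In the BMP and SMAD pathway 18 of 27 genes were higher and 9 lower, beside 46.3% higher over all probe sets, with a median log2 difference of 0.08. At an unadjusted limma p below 0.05 there were 2 higher and 1 lower, against 6.89% of all probe sets in either direction. Whether these shares differ from those over all probe sets was not tested. Furin, the protease that matures BMP6 and cuts hemojuvelin into a soluble form, had signals of 10.02, 9.90 and 10.10 in CREB-H-ΔTC livers, against 9.59, 9.62 and 9.62 in GFP livers. The groups of Furin did not overlap, and the log2 difference was 0.40 (SE 0.10, adjusted p = 0.623), with 0.35 to 0.45 when any single array was left out. Hjv, the hemojuvelin gene, had 8.63, 8.94 and 8.25 in CREB-H-ΔTC livers, against 9.12, 9.21 and 9.09 in GFP livers, again without overlap; the difference was -0.53 (SE 0.18, adjusted p = 0.685) and -0.36 without CREB-H-ΔTC replicate 3. Sulf1, a sulfatase of heparan sulfate, differed by 0.52 (SE 0.19) at signals of 4.32 to 5.30, and the target gene Id2 by 0.37 (SE 0.19), or 0.19 without CREB-H-ΔTC replicate 1. The target gene Id3, chosen after its values were seen, had 7.40, 7.40 and 6.11 in CREB-H-ΔTC livers, against 6.53, 7.25 and 6.73 in GFP livers, so its replicate 3 was lowest with CREB-H-ΔTC but not with GFP.

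The interleukin-6 and STAT3 arm had 9 of 13 measured genes higher, beside 46.3% of all probe sets, with a median of 0.10. On replicate 3 its mean differed from that of the other arrays by -0.20 with CREB-H-ΔTC and -0.49 with GFP. Replicate 3 was lowest in both groups for 5 of the 13, against 13.9% of all probe sets. The same held for 4 of 27 BMP and SMAD genes and 5 of 20 carriers. The part of this arm in the hepcidin values was not tested. The arm held 1 gene with an unadjusted limma p below 0.05, a share near the 6.89% of all probe sets. That gene was Jak2, a kinase of cytokine receptors, with 8.38, 8.18 and 8.40 in CREB-H-ΔTC livers, against 7.74, 8.10 and 8.04 in GFP livers (log2 difference 0.36, SE 0.13, adjusted p = 0.699). The groups of Jak2 did not overlap. The receptor subunit gene Il6st differed by 0.20 (SE 0.12), Stat3 by 0.14 (SE 0.11; 0.09 without GFP replicate 3), and Il6 itself, at signals of 2.47 to 2.93, by -0.20 (SE 0.12; -0.09 without GFP replicate 3).

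Iron and heme carriers had 10 of 20 measured genes higher and 10 lower, with a median of 0.02. Cybrd1, the ferric reductase of the gut, had 5.84, 6.03 and 5.85 in CREB-H-ΔTC livers, against 5.72, 5.66 and 5.57 in GFP livers, a log2 difference of 0.26 (SE 0.11, adjusted p = 0.723) without overlap. Abcg2, an exporter that carries porphyrins among other substrates, had 8.43, 8.47 and 8.60 in CREB-H-ΔTC livers, against 8.82, 8.71 and 9.61 in GFP livers, a difference of -0.55 (SE 0.24, adjusted p = 0.737) that was -0.27 without GFP replicate 3. The folate and heme carrier gene Slc46a1 differed by 0.21 (SE 0.13), by 0.32 without GFP replicate 3, by 0.36 over the 4 arrays lacking Y-linked signal and by -0.10 between the 2 carrying it. Slc39a14, an importer of iron not bound to transferrin, differed by 0.32 (SE 0.22), or 0.08 without GFP replicate 3.

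In the list of iron storage and the iron regulatory proteins, 4 of 10 measured genes were higher and the median was -0.02. Fth1, the ferritin heavy chain, had 12.88, 12.82 and 13.17 in CREB-H-ΔTC livers, against 12.74, 12.61 and 12.78 in GFP livers. All 3 CREB-H-ΔTC arrays were above all 3 GFP arrays, by a mean of 0.25 (SE 0.13, adjusted p = 0.794), or 0.14 without CREB-H-ΔTC replicate 3. Ncoa4, the receptor that carries ferritin to the lysosome, differed by 0.23 (SE 0.22) and by -0.01 without GFP replicate 3, and Bola2 and Pcbp1, whose proteins handle iron in the cytosol, by -0.09 (SE 0.10) and -0.07 (SE 0.10). Without GFP replicate 3 Bola2 differed by -0.046. Pcbp1 differed by -0.035 without GFP replicate 2.

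Heme synthesis and breakdown had 9 of 16 measured genes higher and 7 lower, a median of 0.04, and 3 genes with an unadjusted p below 0.05, against 6.89% of all probe sets. The 2 genes of lowest p differed in opposite directions. Fech, which inserts iron into protoporphyrin, had 10.35, 10.14 and 10.26 in CREB-H-ΔTC livers, against 9.65, 9.70 and 9.99 in GFP livers, a log2 difference of 0.47 (SE 0.13, adjusted p = 0.644). Cpox, which acts upstream of it, had 10.97, 10.93 and 10.66 in CREB-H-ΔTC livers, against 11.30, 11.29 and 11.24 in GFP livers, a difference of -0.42 (SE 0.12, adjusted p = 0.636). Both kept the groups apart, with 0.40 to 0.57 for Fech and -0.48 to -0.33 for Cpox when single arrays were left out. Both were picked by low p on these same arrays. Uros, of the same pathway, differed by -0.27 (SE 0.11). Alas1, the rate-limiting enzyme in liver, differed by 0.45 (SE 0.20), with 0.75 over the 4 arrays lacking Y-linked signal and -0.15 between the 2 carrying it.

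**Figure D4:**
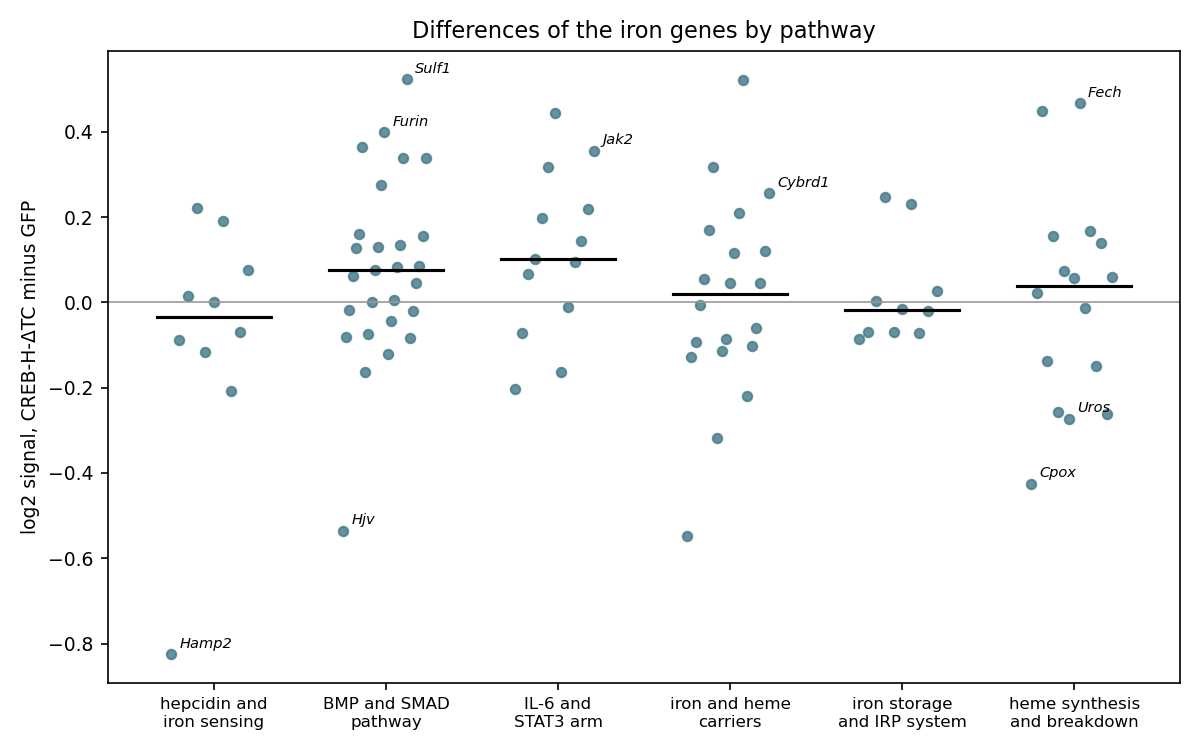
Log2 difference of CREB-H-ΔTC minus GFP for each measured gene of the hepcidin and iron sensing set and of 5 pathway lists, with the median of each as a line. Medians lie between -0.03 and 0.10; the names are those with an unadjusted p below 0.05 and Hamp2, and no gene passed the adjusted test.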

How the data were processed

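Total RNA from 6 mouse livers was labelled with biotin and hybridised to 1 array each, per the labels' protocols. The deposited values are log2 signals. Per the submitters' processing notes, the authors used the Transcriptome Analysis Console (version, probe summarisation and normalization: not given in the sources used here). From the values, the scale was taken as log2 (1.42 to 13.87, array medians 4.981 to 5.014). No detection calls or scan dates were used, so low signals have no floor; the build GRCm38.p6 was used for the promoters alone.

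Gene names came from the platform annotation: 23521 of 41345 probe sets had 1 symbol, 1814 had several and 16010 were not listed; the last 2 kinds were not named. A gene with several probe sets was read from the one with the highest mean. The comparison used R 4.3.3 and limma 3.58.1 (lmFit, then eBayes; group alone, all 6 arrays, two-sided, Benjamini-Hochberg over all probe sets, threshold 0.05). An SE is the moderated one. In this fit p-values are set against the spread between 3 mice per group, moderated over all probe sets. Those from fits with fewer arrays or an added term are set against the spread left in that fit. On simulated data with 41345 probe sets, 0% of 50 changes of 0.5, 78% of those of 1 and 98% of those of 2 (log2) were recovered, with 10 false calls. The changes, 50 each of 0.5, 1, 2 and 4, were put on brighter probe sets with independent normal noise. So many large changes make the adjusted threshold easier to pass than in the real table, where 2 probe sets passed. The shares do not carry over to Hamp (SE 0.38) and Hamp2 (SE 0.78), beside a median SE of 0.142 over all probe sets.

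The 10 genes and the lists were chosen with earlier results of these data known. All 10 are named, with up to 4 genes per pathway list of lowest unadjusted p, and the 5 genes most like Hamp and Hamp2. Alternatives were quantile normalization, median centring, filters removing the dimmest 25% or 50%, array weights, limma-trend (plain and robust), a block for the replicate number, a term for Y-linked signal (mean above 5), the 4 arrays without it, each array left out, averaging the probe sets of a gene (pathway lists only), and an unadjusted p. Sequences were aligned with Biopython 1.88 and figures drawn with matplotlib 3.10.9.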

Additional observations from a re-analysis of the deposited data

How the results depend on the processing

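No gene of the set passed under any of the 16 other fits; the lowest adjusted p was 0.474, for Hamp2 with a term for Y-linked signal. Among the 4 arrays without Y-linked signal, Hamp (0.0229) and Slc40a1 (0.13) turned positive and the list medians moved to 0.18 for the BMP and SMAD pathway and 0.0341 for iron storage, and under quantile normalization Tfr2 was -0.0032; the cause was not tested. With 1 array left out the log2 difference ran from -0.38 to 0.28 for Hamp, -0.0636 to 0.11 for Tfr2, -0.20 to 0.043 for Bmp6, -0.21 to 0.0917 for Slc40a1, -0.12 to 0.64 for Id1 and -0.19 to 0.27 for Smad7, so that these 6 turned sign, while the other 4 kept theirs. The list medians ran from -0.0022 to 0.12 (BMP and SMAD pathway), -0.0061 to 0.18 (interleukin-6 arm), -0.0561 to 0.0222 (carriers), -0.0639 to 0.0285 (storage) and -0.02 to 0.06 (heme). Creb3l3 ran from 0.69 to 1.12. Fits without a replicate 3 keep Y-linked signal in 1 group only, so these ranges also hold that imbalance. Same-numbered arrays deviated from their group means with correlations of 0.08, 0.13 and 0.33. Replicates 1 and 2 crossed between the groups gave 0.12 and 0.16, and replicate 3 with another number gave -0.23 to -0.16. The 0.33 is between the 2 arrays with Y-linked signal. The numbers were not taken as pairs. With the replicate number as a block, Hamp2 remained at -0.82 (limma adjusted p = 0.521). In that fit 0 genes of the set passed and 0 probe sets passed in all, against 2 in the main fit. None of the 10 genes has a further probe set, so reading them from another one was not run; averaging probe sets was run for the pathway lists. The number of arrays limits the precision.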
